A study of Mus musculus with 11 samples.

Results

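The 10 genes described here encode Wnt ligands and secreted proteins that bind them in the extracellular space: Wnt5a, Wnt2, Wnt4, Wnt9a and Wnt11 as ligands, and Sfrp1, Sfrp2, Sfrp5, Frzb and Wif1 as antagonists. They were chosen by symbol, with earlier results of these data known, and make up 10 of the 55421 genes of the count table. The table holds RNA sequencing counts of hearts from female C57BL/6J mice aged 8 weeks. In 8 of the 11 mice the left anterior descending coronary artery was ligated to induce myocardial infarction (MI). Tissue labelled as the infarct border zone, which the study describes as infarct and border zone, was taken 3 days later. Of these 8 mice, 4 received 100 mg/kg GI254023X (A10i), a hydroxamate inhibitor of the sheddase ADAM10, and 4 received the solvent DMSO. The remaining 3 mice were sham-operated, are labelled as given DMSO, and provided healthy heart tissue, so MI and the region sampled cannot be told apart in a comparison with sham. Drug and solvent were given through implanted osmotic minipumps, according to the study.

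Wnt proteins are lipid-modified glycoproteins that act over short distances through Frizzled receptors. With the co-receptors Lrp5 and Lrp6 they stabilise beta-catenin, and through other partners they drive planar polarity and calcium signalling. Secreted Frizzled-related proteins (Sfrp1, Sfrp2, Sfrp5 and Frzb, also called Sfrp3) carry a cysteine-rich domain related to that of the receptors and bind Wnts, whereas Wif1 binds Wnts through a domain of its own. The pathway is largely quiet in the healthy adult heart and is known to be engaged in wound repair, where fibroblasts and the epicardium are among the cells that use it.

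RefSeq promoter sequences (GRCm38.p6) were at hand for 8 of the 10 genes, and not for Wnt5a or Sfrp1. Shown here are the bases before the first base of the deposited gene model for 3 genes that were higher after MI in at least 1 comparison (Sfrp2, Wnt4 and Wif1) and, beside them, for Wnt11, which was called in no comparison. Capitals mark matches, on either strand, to any of 4 motifs: AP-1 (TGANTCA), TCF/LEF (CTTTGA), GC box (GGGCGG) and TATA box (TATAAA). Overlapping matches run together. The stretches are chr3:83766071-83766320 (plus strand) for Sfrp2, chr4:137277385-137277488 (plus strand) for Wnt4, chr10:121033754-121033959 (plus strand) for Wif1 and chr7:98834862-98835111 (plus strand) for Wnt11.
Sfrp2: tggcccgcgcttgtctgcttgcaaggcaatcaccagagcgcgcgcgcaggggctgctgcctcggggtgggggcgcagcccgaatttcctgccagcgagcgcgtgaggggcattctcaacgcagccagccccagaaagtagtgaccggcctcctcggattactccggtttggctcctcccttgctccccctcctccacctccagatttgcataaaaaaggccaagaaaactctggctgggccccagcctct
Wnt4: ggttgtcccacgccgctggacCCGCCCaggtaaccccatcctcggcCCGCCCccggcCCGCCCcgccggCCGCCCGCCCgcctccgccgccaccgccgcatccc
Wif1: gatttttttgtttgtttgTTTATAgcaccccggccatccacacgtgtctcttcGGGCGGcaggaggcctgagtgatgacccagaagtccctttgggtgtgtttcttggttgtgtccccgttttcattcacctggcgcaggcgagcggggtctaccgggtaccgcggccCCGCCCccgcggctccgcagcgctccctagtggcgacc
Wnt11: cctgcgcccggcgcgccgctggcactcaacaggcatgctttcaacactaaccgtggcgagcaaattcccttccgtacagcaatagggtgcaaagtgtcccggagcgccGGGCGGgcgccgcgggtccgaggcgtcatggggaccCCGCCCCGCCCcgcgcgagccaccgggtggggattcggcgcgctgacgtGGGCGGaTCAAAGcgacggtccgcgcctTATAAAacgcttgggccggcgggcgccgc

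The Sfrp2 stretch of 250 bases held none of the 4 motifs, and the shorter Wnt4 stretch, with 83.7% G and C, held 5 GC boxes. Over the full 250 bases before the RefSeq start, a TCF/LEF match was present in Frzb and at the first Wnt11 start, while 13.8% of 32851 mouse promoters held one. No AP-1 match was found in any of the 8 genes, against 6.75% of all promoters. GC boxes were present in 7 of the 8 genes, against 32.7% of all promoters. A TATA box was present in Wif1 and at the first Wnt11 start, against 12.4%. These matches describe letters only and do not mark bound sites. The Frzb window lies almost wholly inside the deposited gene model and is not shown. In the deposited gene models (mm10), the genes that were called span chr14:28504750-28527448 for Wnt5a, chr4:137277489-137299726 for Wnt4, chr8:23411502-23449632 for Sfrp1, chr3:83766321-83774316 for Sfrp2 and chr10:121033960-121100650 for Wif1, all on the plus strand. Frzb spans chr2:80411970-80447625 on the minus strand. The counts cover all exons of each model.

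Libraries held 21702623 to 29511768 counts. Levels are given as CPM, the share of a library scaled to a common total by the trimmed mean of M-values (TMM), and levels of different genes are compared only after division by the length of the merged exons in kilobases. Fold changes and adjusted p-values come from edgeR's quasi-likelihood test over all genes that passed its filter, two-sided. A gene was called at a Benjamini-Hochberg adjusted p under 0.01. Cardiomyocyte markers, 12 genes, summed to 108000 to 109000 CPM in sham, 49100 to 73800 CPM in DMSO and 62100 to 85100 CPM in A10i libraries, so that heart muscle RNA was plain in every library. In such bulk tissue, fewer cells of a type and less RNA per cell cannot be told apart. A gene model on the opposite strand shares exon bases with Wnt5a, Wnt11 and Sfrp2 (347 to 364 bases); these partners had 0 to 6 counts per library. Since the strand setting of the counting is not stated in the sources used here, reads from the shared bases cannot be assigned with certainty.

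The first comparison asked how MI changed the RNA of these genes in DMSO-treated mice. The ligand Wnt4 and the antagonists Sfrp2 and Frzb rose, and the ligand Wnt5a fell. Thus 3 of the 9 genes tested were called higher and 1 was called lower, while 12.9% of all 17117 genes tested were called higher and 9.6% lower. The median log2 fold change of the 9 genes was 0.79, against 0 over all genes tested. Wnt2, with 3 to 17 counts per library, did not pass the filter on low counts. In A10i-treated mice with MI against sham, 5 of 10 genes were called higher (Wnt4, Sfrp1, Sfrp2, Frzb and Wif1) and 0 lower, against 13.7% and 9.11% of 16971 genes. The median of the 10 genes was 1.2, against -0.01 over all genes tested. Both comparisons use the same 3 sham libraries.

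**Figure D1:**
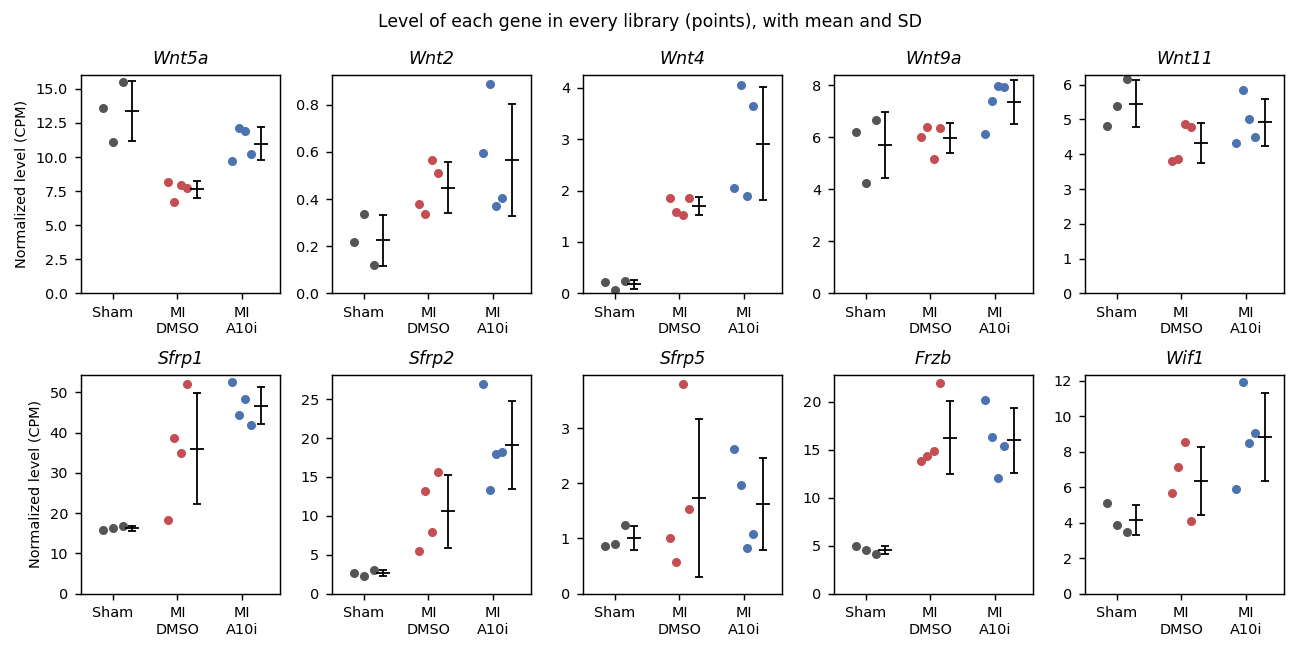
Level of each gene in CPM (vertical axes, from 0) in every library of the sham (n = 3), MI with DMSO (n = 4) and MI with A10i (n = 4) groups; each point is 1 library, and the bar beside the points gives the mean and SD. Wnt4, Sfrp2 and Frzb lie above the sham range in all 8 MI libraries, and Wnt5a in the DMSO libraries, at 6.71 to 8.14 CPM, lies below both other groups.

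Among the ligands, Wnt5a, a Wnt best known for signalling without beta-catenin, fell after MI in DMSO-treated mice. Its level was 13.6, 11.1 and 15.5 CPM in sham S1, S2 and S3, and 8.14, 6.71, 7.95 and 7.74 CPM in DMSO A105, A127, A128 and A129. It was 9.68, 12.1, 11.9 and 10.2 CPM in A10i A116, A117, A119 and A120. All DMSO values lay below all sham and all A10i values, whereas the A10i and sham ranges overlapped. The log2 fold change of DMSO against sham was -0.82 (SE 0.14, adjusted p = 0.00164, edgeR). The call was lost without sham S1 (log2 fold change -0.81, edgeR adjusted p = 0.0107) and without sham S3 (-0.70, edgeR adjusted p = 0.0118). In A10i mice against sham, the log2 fold change was -0.28 (95% interval -0.58 to 0.01, edgeR adjusted p = 0.109).

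Wnt4, a ligand with known roles in kidney and gonad development and in mesenchymal to epithelial transition, had the largest fold change of the 10 genes in both comparisons with sham. Its level was 0.217, 0.0748 and 0.242 CPM in sham, 1.86, 1.58, 1.53 and 1.85 CPM in DMSO, and 2.06, 4.06, 1.9 and 3.64 CPM in A10i libraries. Sham libraries held 5, 2 and 6 counts of Wnt4, and each MI library at least 44. No MI library came near the sham range, and A117 and A120 stood above the other MI libraries. The log2 fold change was 3.24 in DMSO (9.45-fold, SE 0.36, edgeR adjusted p = 0.000249) and 4.02 in A10i mice (16.3-fold, SE 0.46, edgeR adjusted p = 0.000305). The 95% intervals were 2.45 to 4.03 and 3.01 to 5.04.

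The remaining 3 ligands passed the threshold in neither comparison with sham. Wnt9a, a ligand with known roles in joint and skeletal development, ranged from 4.26 to 6.66 CPM in sham, 5.16 to 6.41 CPM in DMSO and 6.15 to 7.97 CPM in A10i libraries. Wnt11, a ligand of early heart development that acts largely without beta-catenin, ranged from 4.81 to 6.17, 3.8 to 4.86 and 4.32 to 5.84 CPM in the same order. Wnt2, a ligand of lung and vascular development, had 3 to 9 counts in sham, 9 to 17 in DMSO and 9 to 23 in A10i libraries. Its log2 fold change of A10i against sham was 1.31 (95% interval 0.27 to 2.36, edgeR adjusted p = 0.0484), which did not pass. The log2 fold changes of Wnt9a were 0.07 in DMSO and 0.37 in A10i mice. For Wnt11 they were -0.34 and -0.15, and the latter became 0.04 when libraries were scaled by their totals alone.

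Among the antagonists, Sfrp2, a fibroblast product also known as an enhancer of procollagen processing, rose with the second largest fold change. Sham libraries held 2.69, 2.24 and 3.07 CPM, DMSO libraries 5.44, 13.2, 7.95 and 15.7 CPM, and A10i libraries 26.9, 13.3, 18 and 18.2 CPM. Every MI library was above every sham library, with A105 the lowest and A116 the highest of the 8. The log2 fold change was 1.99 in DMSO (3.97-fold, SE 0.36, edgeR adjusted p = 0.00321) and 2.85 in A10i mice (7.19-fold, SE 0.25, edgeR adjusted p = 2e-04). In DMSO mice, the call was lost without S1, S2 or S3 (edgeR adjusted p = 0.0175, 0.0195 and 0.0144) and with no filter on low counts (edgeR adjusted p = 0.0233), while the log2 fold change stayed between 1.87 and 2.10.

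Frzb, first described in cartilage, rose to nearly the same level in both MI groups. Its level was 4.98, 4.6 and 4.11 CPM in sham, 13.8, 14.3, 14.9 and 21.9 CPM in DMSO, and 20.2, 16.3, 12 and 15.4 CPM in A10i libraries. The MI groups overlapped each other and stood clear of sham. The log2 fold change was 1.83 in DMSO (3.55-fold, SE 0.19, edgeR adjusted p = 0.000181) and 1.81 in A10i mice (3.51-fold, SE 0.17, edgeR adjusted p = 0.000159).

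Sfrp1 had the highest level of the 10 genes per length in each group. Sham libraries held 15.7, 16.2 and 16.9 CPM, DMSO libraries 18.4, 38.7, 35 and 52 CPM, and A10i libraries 52.5, 44.3, 48.3 and 41.8 CPM. The DMSO group was spread widely, with A105 just above sham, and the A10i group was compact. The log2 fold change in DMSO mice was 1.15 (SE 0.29, edgeR adjusted p = 0.0134), which did not pass. It passed without A105 (log2 fold change 1.35, edgeR adjusted p = 0.00049), in a joint fit of all 11 libraries (edgeR adjusted p = 0.0049), with scaling by totals alone (edgeR adjusted p = 0.0099) and with DESeq2 (adjusted p = 0.000114). In A10i mice the log2 fold change was 1.53 (2.88-fold, SE 0.09, edgeR adjusted p = 4.53e-05).

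Wif1 was called only in A10i mice, although the difference between the MI groups was itself not called. Its level was 5.11, 3.89 and 3.47 CPM in sham, 5.65, 7.14, 8.55 and 4.12 CPM in DMSO, and 5.87, 11.9, 8.47 and 9.04 CPM in A10i libraries. The DMSO range overlapped sham, and the A10i range lay above it. The log2 fold change was 0.62 in DMSO (95% interval 0.06 to 1.17, edgeR adjusted p = 0.0741) and 1.09 in A10i mice (SE 0.23, edgeR adjusted p = 0.00577). The A10i call was lost in the joint fit of 11 libraries (edgeR adjusted p = 0.011) and without S1, S2, S3 or A120 (edgeR adjusted p = 0.0115, 0.0302, 0.0313 and 0.0166). Sfrp5, known as an adipose tissue product, varied most within a group, from 0.57 to 3.79 CPM in DMSO libraries, and ranged from 0.867 to 1.25 CPM in sham and 0.826 to 2.62 CPM in A10i libraries. Its log2 fold changes, 0.79 and 0.70, did not pass.

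**Figure D2:**
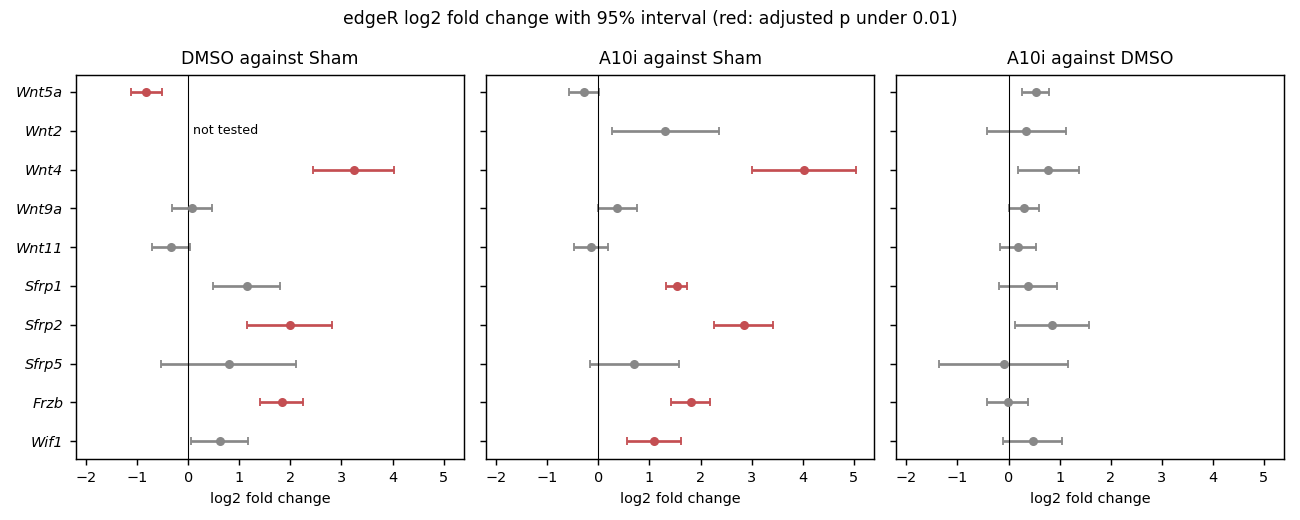
The edgeR log2 fold change (horizontal axis) of each gene in the 3 comparisons, with its 95% interval; red marks an adjusted p under 0.01. Wnt4 lies farthest to the right in both comparisons with sham (3.24 and 4.02), Wnt5a is the only gene called lower, and no gene is called between A10i and DMSO.

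The comparison that isolates the drug, A10i against DMSO after MI, gave no call. With edgeR, 0 of the 10 genes were called, as were 0% of all 16792 genes tested, and limma-voom also gave 0. DESeq2 called 1 of the 10, Wnt5a, at an adjusted p of 0.00983, and called 1.32% of the 17508 genes to which it gave an adjusted p. At an unadjusted edgeR p under 0.05 there were 4 genes (Wnt5a, Wnt4, Wnt9a and Sfrp2), all higher in A10i, against 13.8% of all genes in either direction. In 2 genes, Wnt5a and Wnt4, every A10i library was above every DMSO library, as in 4.01% of all genes. The median log2 fold change of the 10 genes was 0.36, against 0 over all genes.

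Wnt5a was higher in all 4 A10i libraries than in any DMSO library, with a log2 fold change of 0.53 (1.44-fold, 95% interval 0.27 to 0.79, edgeR adjusted p = 0.106). An exact permutation test of its log2 CPM, two-sided, gave p = 0.0286, the smallest value that 4 against 4 libraries allow. For Wnt4 the log2 fold change was 0.78 (95% interval 0.19 to 1.37, edgeR adjusted p = 0.238), and the exact permutation p was also 0.0286. The separation of Wnt4 was narrow, with 1.9 CPM in A119 against 1.86 CPM in A105, and scaling by totals alone raised the exact permutation p to 0.0571. Over the 10 genes none of these exact p-values is adjusted for the number of genes tried.

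Sfrp2 had the largest log2 fold change between the MI groups, 0.85 (95% interval 0.13 to 1.57, edgeR adjusted p = 0.282, exact permutation p = 0.0571), and 1 DMSO value, 15.7 CPM in A129, lay above the lowest A10i value, 13.3 CPM in A117. The interval for Frzb, -0.43 to 0.39 around a log2 fold change of -0.02, was the narrowest among the antagonists. For Sfrp1 (0.38, 95% interval -0.18 to 0.94), Wif1 (0.47, -0.10 to 1.04), Wnt9a (0.30, 0.01 to 0.60) and Wnt11 (0.19, -0.16 to 0.54) the data allowed both small and moderate differences. The intervals were widest for Sfrp5 (-1.36 to 1.17) and Wnt2 (-0.43 to 1.12).

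Read per length, the ligands and the antagonists described here stood in different proportion in healthy and infarcted tissue. In sham, Sfrp1 led with 3.72 ± 0.14 CPM per kb (SD, n = 3), and its range did not overlap that of Wnt5a, next in order at 1.72 ± 0.286. Wnt5a, Wnt9a, Wif1, Frzb, Wnt11 and Sfrp2 followed between 1.72 and 1.24 CPM per kb, each overlapping its neighbour. Sfrp5 (0.529), Wnt2 (0.0997) and Wnt4 (0.0424) were lowest. In DMSO libraries the order began with Sfrp1 (8.24 ± 3.16, SD, n = 4), Frzb (5.01 ± 1.18), Sfrp2 (4.92 ± 2.19) and Wif1 (2.62 ± 0.786), with overlapping neighbours, and Wnt9a (1.8 ± 0.174) was the highest ligand. In A10i libraries Sfrp1 (10.7 ± 1.08, SD, n = 4) and Sfrp2 (8.87 ± 2.65) overlapped at the top, and Wnt9a (2.21 ± 0.257) stood apart from both Wif1 above it and Wnt5a below it. Wnt2 was last in both MI groups, its range below that of Wnt4.

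**Figure D3:**
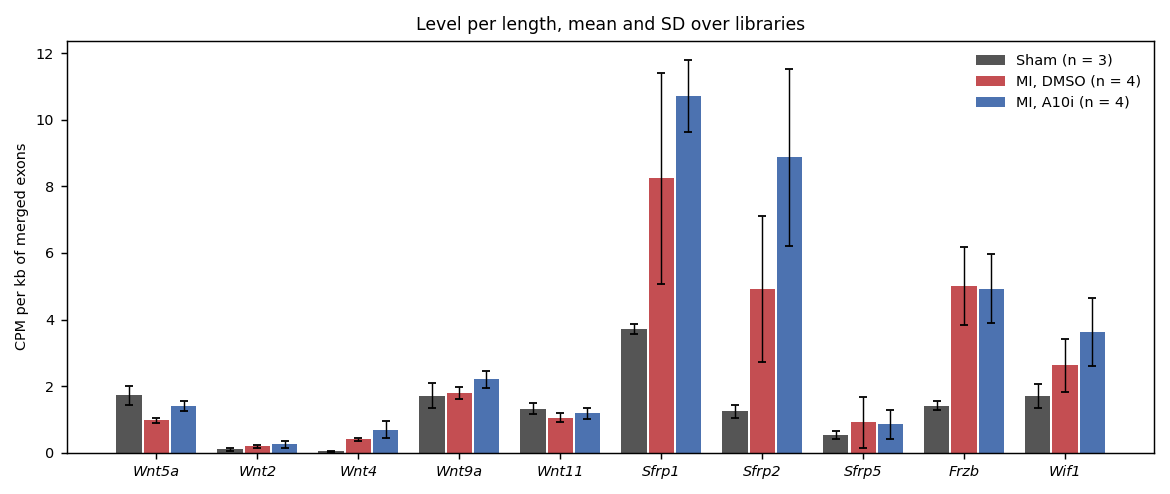
Mean level per length (vertical axis, CPM per kb of merged exons, from 0) of each gene in the 3 groups, with SD bars. The antagonists Sfrp1, Sfrp2, Frzb and Wif1 have the tallest bars in both MI groups, and all 5 ligands stay at or below 2.21 CPM per kb.

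Summed per length, the 5 ligands gave 4.89 ± 0.711 CPM per kb in sham (SD, n = 3), 4.43 ± 0.209 in DMSO (SD, n = 4) and 5.75 ± 0.68 in A10i libraries (SD, n = 4). The 5 antagonists gave 8.61 ± 0.348, 21.7 ± 6.02 and 29 ± 3.71 CPM per kb in the same order. Over these genes the ratio of antagonist to ligand RNA was thus 1.55 to 1.98 in sham, 3.16 to 6.03 in DMSO and 4.16 to 7.07 in A10i libraries. These are sums of RNA levels and not of protein, and they depend on the genes chosen. Other detected genes were left out of them. Examples are the antagonist Igfbp4, at a mean of 82 CPM in sham and 134 CPM in DMSO, and the ligand Wnt9b, at 0.637 and 2.6 CPM. Within the ligand sum, Wnt5a made up 35% in sham, 22.1% in DMSO and 24.5% in A10i libraries. Wnt4 made up 0.837%, 9.17% and 11.9%.

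Cell type markers moved with some of these genes. The fibroblast list of 12 genes summed to 2680 to 2800 CPM in sham, 3010 to 6730 CPM in DMSO and 6340 to 9250 CPM in A10i libraries. Of the 12, 4 were called higher in DMSO and 9 in A10i mice against sham, and no marker was at 0 in a whole group. The sum moved with 3 collagen genes: Col1a1, Col1a2 and Col3a1 were called higher in both comparisons, by 4.35-fold to 12.4-fold. Of the other 9 markers, Pcolce (1.94-fold) was the only one called in DMSO mice, while Gsn (0.616-fold), Fbln1 (0.833-fold), Mmp2 (0.919-fold), Tcf21 (1.07-fold) and Pdgfra (1.49-fold, edgeR adjusted p = 0.0165) were not called. Without the collagens, in an alternative chosen after seeing the data, the sum was 2140 to 2290 CPM in sham, 1560 to 2150 CPM in DMSO and 1990 to 2780 CPM in A10i libraries. Gsn was the largest part of that sum, at 1290 to 1390 CPM in sham, 531 to 1050 CPM in DMSO and 752 to 1330 CPM in A10i libraries. Dcn, the next largest, did not fall, at 425 to 467 CPM in sham and 437 to 602 CPM in DMSO libraries. A105, with the lowest Sfrp1 and Sfrp2 of the MI libraries, also had the lowest fibroblast sum, 3010 CPM, and A116 had the highest fibroblast sum and the highest Sfrp1 and Sfrp2. Across the 8 MI libraries, where all values of a library share its depth and scaling, Pearson's r with the fibroblast sum was 0.93 for Sfrp1, 0.98 for Sfrp2 and 0.53 for Frzb. Macrophage markers, 12 genes, moved with Sfrp1, Sfrp2 and Frzb too. They summed to 372 to 404 CPM in sham, 700 to 1560 CPM in DMSO and 886 to 2000 CPM in A10i libraries. Of these markers, 9 and 11 were called higher against sham. With the macrophage sum r was 0.82 for Sfrp2, 0.81 for Frzb and 0.73 for Sfrp1, and Frzb had r = -0.81 with the cardiomyocyte sum. The other antagonists, Wif1 and Sfrp5, had r = -0.38 and 0.15 with the macrophage sum. With the fibroblast sum they had r = 0.02 and 0.14. The part of cell content in these results was not tested.

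What the genes did relative to fibroblast markers depended on the markers used. Per 1000 CPM of the 12 fibroblast markers, Sfrp1 was 5.6 to 6.04 CPM in sham, 6.11 to 8.23 in DMSO and 5.67 to 7.49 in A10i libraries, so A10i and sham overlapped. On that scale Sfrp2 (0.838 to 1.09, 1.81 to 2.43 and 2.09 to 2.91) and Frzb (1.47 to 1.78, 2.64 to 4.57 and 1.86 to 2.57) lay above sham in every MI library, and Wnt5a (4.13 to 5.55, 1.15 to 2.7 and 1.05 to 1.91) below it. Per 1000 CPM of 10 activated fibroblast markers, whose sum was 278 to 324 CPM in sham and 764 to 3210 CPM over the MI libraries, the picture differed. Sfrp2 was then 7.56 to 11 in sham, 6.32 to 9.26 in DMSO and 8.39 to 11.1 in A10i libraries, and all groups overlapped. Frzb was 14.8 to 15.5, 8.8 to 18 and 6.28 to 13.6, so that A10i lay below sham, and Sfrp1 was 48.4 to 60.8, 20.9 to 40.7 and 16.4 to 36.9, below sham in every MI library. Without the 3 collagens in the fibroblast sum, Sfrp1 (7.14 to 7.58 in sham, 10.2 to 33.3 in DMSO and 15.9 to 26.4 in A10i), Sfrp2 (1.05 to 1.34, 3.02 to 10.1 and 4.78 to 13.6) and Frzb (1.8 to 2.27, 6.96 to 14 and 5.36 to 10.1) all lay above sham. Wnt5a then overlapped sham in A10i libraries (5.18 to 6.79 in sham, 3.61 to 4.95 in DMSO and 4.19 to 5.31 in A10i). Gsn was the largest marker of the sum without collagens in every library, so the ratios to that sum depend strongly on Gsn. All the ratios are descriptions and carry no test.

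Wnt4 moved with another list. Markers of mesothelium and epicardium, 10 genes, summed to 38.5 to 63.2 CPM in sham, 63.8 to 95.3 CPM in DMSO and 81.8 to 167 CPM in A10i libraries, and 5 of the 10 were called higher in each comparison with sham. None was called lower, but the list did not move as a whole. Upk3b was 10.8 to 17.2 CPM in sham and 6.39 to 13.2 CPM in DMSO libraries, and Muc16 was 4.23 to 8.84 and 1.81 to 6.14 CPM. Across the 8 MI libraries Pearson's r of Wnt4 with this sum was 0.91, and A117 and A120 were the 2 highest in both. Per 1000 CPM of these markers, Wnt4 was 1.94 to 4.05 CPM in sham, 16.5 to 25.2 in DMSO and 21.5 to 26.2 in A10i libraries, so the MI groups overlapped and both stood clear of sham. Whether the amount of surface tissue in a sample plays a part was not tested.

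**Figure D4:**
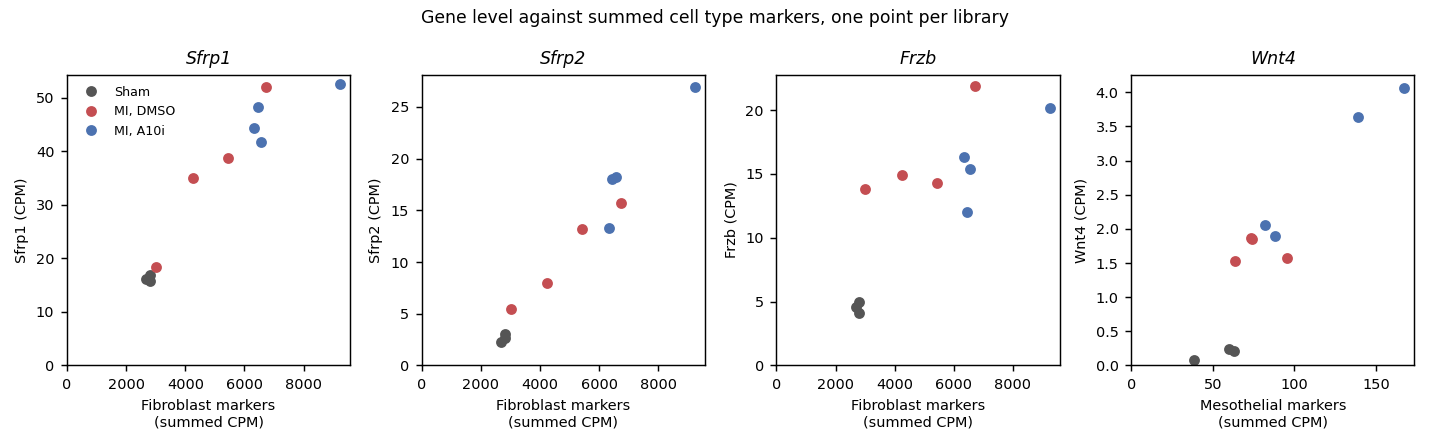
Level of Sfrp1, Sfrp2 and Frzb against the summed fibroblast markers, and of Wnt4 against the summed mesothelial markers (all in CPM, axes from 0), with 1 point per library. Sfrp2 climbs with the fibroblast sum across the MI libraries (r = 0.98, n = 8). Frzb in DMSO is 13.8 CPM at the lowest fibroblast sum of that group (A105, 3010 CPM) and 21.9 CPM at its highest (A129, 6730 CPM). The sham points of Wnt4 lie at the bottom although their marker sums reach 63.2 CPM.

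For Wnt5a, the lists that differed between the MI groups were those of endothelium and neutrophils. Endothelial markers, 12 genes, summed to 2130 to 2190 CPM in sham, 1650 to 1730 CPM in DMSO and 1840 to 2080 CPM in A10i libraries. In DMSO against sham 3 of the 12 were called lower, Aqp1 (0.434-fold), Tie1 (0.689-fold) and Kdr (0.784-fold), and Cldn5 was called higher. Most of the fall in the sum was Aqp1, at a mean of 588 CPM in sham and 256 CPM in DMSO. Of the markers not called, Tek (0.752-fold), Egfl7 (0.843-fold), Cdh5 (0.856-fold) and Fabp4 (0.905-fold) were lower. Pecam1 (1.03-fold), Vwf (1.11-fold), Emcn (1.10-fold) and Esam (1.14-fold), also not called, were slightly higher. Without Aqp1, chosen after seeing the data, the sum was 1550 to 1600 CPM in sham, 1350 to 1500 CPM in DMSO and 1600 to 1780 CPM in A10i libraries. Per 1000 CPM of all 12 markers, Wnt5a was 5.13 to 7.09 CPM in sham, 3.97 to 4.93 in DMSO and 5.06 to 5.94 in A10i libraries, and without Aqp1 it was 7.15 to 9.73, 4.71 to 6.02 and 6.05 to 7.53. The DMSO values stayed the lowest on both scales. Neutrophil markers, 12 genes, summed to 4.49 to 6.33 CPM in sham, with 2 of the 12 at 0 in all sham libraries, up to 210 CPM in DMSO (median 146 CPM) and 24 to 79.3 CPM in A10i libraries. The DMSO libraries were thus the lowest in Wnt5a and in both endothelial sums and the highest in neutrophil markers. The part of cell content in the Wnt5a difference was not tested.

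The genes whose log2 CPM followed each member most closely over the 8 MI libraries were listed, out of 13470 candidates, by Pearson's r. Each r spans both treatment groups, rests on 8 libraries and is a description. For Sfrp2 these were Clec11a (r = 0.994) and Lrrc17 (0.993), and for Sfrp1 Pimreg (0.979) and Kif15 (0.977), both known from cell division. Frzb was followed by Api5 (0.991) and by Twist1 (0.987), a mesenchymal transcription factor, and Wif1 by Dgke (0.996) and Gm43672 (0.99). For Wnt4 they were Neu3 (0.954) and Cd163 (0.951), a scavenger receptor of resident-type macrophages. For Wnt9a they were Fzd4 (0.972), itself a Wnt receptor, and Hs3st1 (0.97). Wnt5a was followed by Ifi27l2a (0.964) and Mppe1 (0.963), Wnt11 by Gm18537 (0.978) and Asl (0.974), and Sfrp5 by Gm6580 (0.971) and Tmco6 (0.97). Among the 10 genes themselves, Sfrp1 and Sfrp2 were closest (r = 0.89, n = 8), with a Spearman rho of 0.833. The lowest values were those of Wnt9a and Sfrp5 (r = -0.529, rho = -0.524) and of Frzb and Wif1 (r = -0.526), although the ranks of Frzb and Wif1 were nearly unrelated (rho = -0.119).

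The rest of the Wnt pathway was read from 108 further genes in 8 lists. After MI with DMSO, 14 of the 80 that passed the filter were called higher and 10 lower, 30% in all, where 12.9% of all genes tested were called higher and 9.6% lower. With A10i, 18 of 82 were called higher and 9 lower against sham, 32.9% in all, where 13.7% of all genes were called higher and 9.11% lower. Counts within a single list are small and are given as descriptions beside these shares. Between A10i and DMSO, 0 of 83 were called by edgeR. The lists were set up from the known biology of the pathway and were chosen with earlier results of these data known.

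Among other ligands and antagonists, Wnt9b rose in DMSO against sham, by 2.05 on the log2 scale (edgeR adjusted p = 0.00527), and 12 of the 14 other ligands did not pass the filter. Igfbp4, an insulin-like growth factor binding protein that also antagonises Wnt signalling, rose by 0.70 on the same scale (edgeR adjusted p = 0.000642). Among 16 receptors and co-receptors tested, 4 rose and 2 fell (25% and 12.5%, against 12.9% and 9.6% of all genes): Mcam (1.40), Ptk7 (1.37) and Fzd2 (1.20) rose most, while Fzd6 (-0.71) and Fzd4 (-0.45) fell. Fzd1 was the other receptor that rose. All 3 genes called among the 7 of Wnt secretion were higher (42.9%, against 12.9% of all genes). They were Tmed5 (0.69), Gpc4 (0.46) and Wls (0.33), the carrier that takes Wnts to the cell surface. Of 5 tested genes of R-spondins and receptor turnover, 0 were called by edgeR in DMSO against sham, and 1 had an unadjusted p under 0.05.

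Within the beta-catenin cascade, 3 of 19 genes fell (15.8%, against 9.6% of all genes) and 0 rose: Apc2 (-1.09), Bcl9 (-0.58) and Apc (-0.37). Apc and Apc2 belong to the complex that marks beta-catenin for destruction, and Bcl9 is its co-activator. Of 11 target genes tested, 4 rose and 1 fell (36.4% and 9.09%, against 12.9% and 9.6% of all genes). Myc (2.93), Ccn5 (2.10) and Ccn4 (1.95), which respond to many signals besides Wnt, rose most, and Tnfrsf19 fell (-1.36). Nkd2 was the other target gene that rose, by 1.13 in DMSO (edgeR adjusted p = 0.00366) and 1.72 in A10i mice (edgeR adjusted p = 0.000618). Axin2, the most widely used target gene of beta-catenin signalling, had a log2 fold change of -0.68 in DMSO (edgeR adjusted p = 0.0276) and -0.16 in A10i mice (edgeR adjusted p = 0.506), neither past the threshold. In the planar polarity and calcium branch, 1 of 16 genes tested rose and 4 fell (6.25% and 25%, against 12.9% and 9.6% of all genes). Celsr3 was called higher, with 3, 0 and 4 counts in sham and 15, 14, 17 and 24 counts in DMSO libraries. Prickle1 (-1.16), Nfatc2 (-0.79), Celsr1 and Prickle2 (both -0.56) fell.

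**Figure D5:**
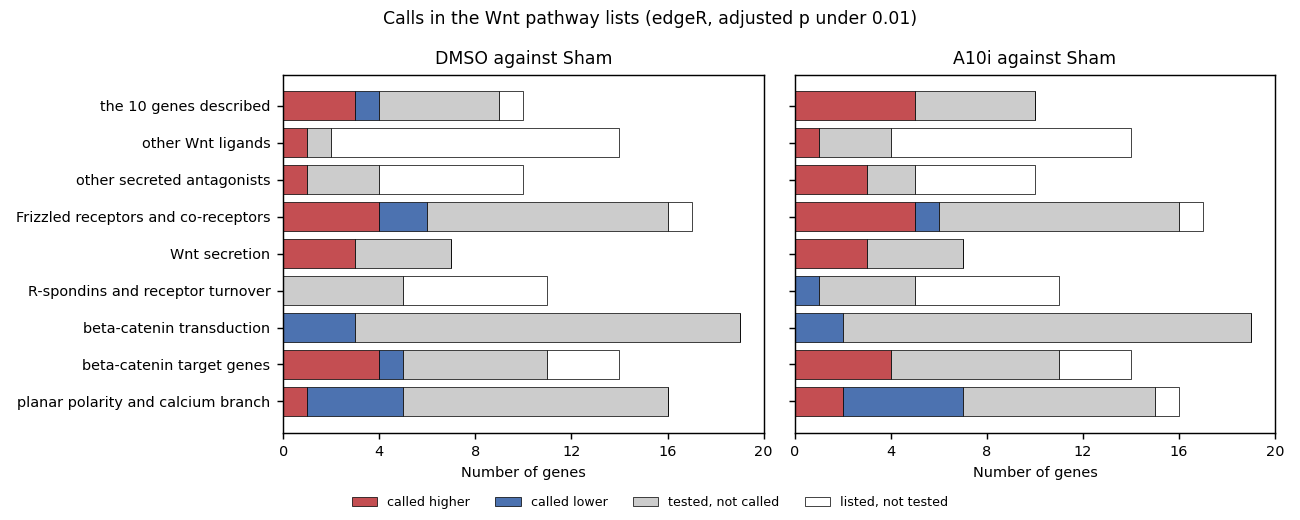
Number of genes (horizontal axis) called higher, called lower, tested and not called, or listed and not tested by edgeR, for the 10 genes and for each of the 8 pathway lists, in DMSO against sham and A10i against sham. The beta-catenin transduction list has calls only downward (3 and 2), and the secretion list only upward (3 and 3).

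Between A10i and DMSO, no pathway gene was called. Of the 83 genes tested, every A10i library was above every DMSO library in 12 and below in 2, where 4.01% and 4.11% of all genes were. The 12 were Wnt9b, Wnt10b, Fzd5, Fzd7, Fzd8, Lrp6, Tcf7l1, Tnks2, Apcdd1, Bambi, Prickle1 and Prickle2, with log2 fold changes of 0.15 (Tnks2) to 1.97 (Wnt10b), and the 2 were Myc and Axin1 (-0.14). Their edgeR adjusted p-values lay between 0.0931 and 0.45. Myc, the target gene with the steepest rise after MI, was 21.8, 14.7, 14.8 and 26.1 CPM in DMSO and 13, 9.44, 5.99 and 9.63 CPM in A10i libraries (log2 fold change -1.02, edgeR adjusted p = 0.14). Prickle1, a planar polarity protein, was 15.9, 15.8, 13.5 and 11.5 CPM in DMSO and 18.1, 23.8, 24.9 and 22.9 CPM in A10i libraries (0.67, edgeR adjusted p = 0.0931).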

How the data were processed

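The authors deposited 1 table of raw counts per Ensembl gene for 11 poly(A)-selected, strand-specific libraries (100 bp pairs); per the labels, the processing notes name bcl2fastq 2.20.0, GSNAP 2020-12-16, featureCounts 2.0.1 and mm10. The 92 spike-in rows (14 to 55 counts per library) were left out. Symbols were matched for 55154 of 55421 genes. Each comparison used the libraries of its own groups: edgeR 4.0.16 (R 4.3.3), filterByExpr, TMM, robust quasi-likelihood F-test, two-sided, Benjamini-Hochberg adjustment over all genes tested. CPM were scaled over all 11 libraries, and log2 CPM used a prior count of 2. The fits were tested on simulated data. Alternatives were DESeq2 1.42.0, limma-voom (limma 3.58.1), other scalings and filters, a joint fit, a threshold of 0.05 and each library left out. Replicates differed beyond counting error (chi-square per degree of freedom 4.04 to 60.8), and p-values judge a difference between groups against the spread between mice.

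The members and lists were chosen with earlier results of these data known. Named genes were all 10 members, for each list up to 3 called genes per direction with the largest change in DMSO against sham, and the 2 genes most like each member. Fzd1, Dkk1 to Dkk4, Axin2, Nkd2, the genes listed as separated between A10i and DMSO and the single cell type markers were named after their values were seen.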

Additional observations from a re-analysis of the deposited data

Results flagged for a closer look

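In 62 groups of 4 libraries (31 genes named, DMSO and A10i groups), a single library stood far from the other 3 in 3 groups, where chance flags about 1 group in 20. The gap to the nearest library, as a share of the range of log2 CPM, was 0.919 for Ptk7 in A10i, where A116 had 20.9 CPM and the others 11.1 to 11.7 CPM. It was 0.925 for Bcl9 in DMSO, where A129 had 23.5 CPM and the others 30 to 30.6 CPM. It was 0.929 for Tnfrsf19 in A10i, where A117 had 2.4 CPM and the others 0.833 to 0.9 CPM. None of the 10 Wnt ligand and antagonist genes had such a library.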

How the results depend on the processing

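Over the alternatives, 4 to 6 genes were called in A10i against sham (5 as reported). In DMSO against sham the count was 4, and leaving out single libraries gave 2 to 5; without S1 or without S3 it was 2 (Wnt4 and Frzb). In A10i against DMSO, DESeq2 gave 1 call (Wnt5a) against 0. The exact permutation test gave 2 genes at its smallest p, 1 with scaling by totals alone, and 1 to 3 when single libraries were left out. Wnt4 lost that p without A105, A127, A128 or A129 (0.114 to 0.143). The direction of some uncalled values turned. With single libraries left out, Wnt9a in DMSO against sham ranged from -0.11 (without S2) to 0.19, and in A10i against DMSO Sfrp5 ranged from -0.42 to 0.67 and Frzb from -0.15 to 0.16. The difference in mean log2 CPM ranged from -0.29 to 0.57 for Sfrp5 and from -0.14 to 0.13 for Frzb. Wnt11 in A10i against sham was 0.04 with totals alone, and Sfrp5 in A10i against DMSO was 0.12 with limma-voom. The cause was not tested.

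Scaling by totals alone moved the median of all genes from about 0 to 0.21 (DMSO against sham) and to 0.18 (A10i against sham). Calls over all genes then split into 3330 higher and 708 lower against 2215 and 1643, and 3436 and 577 against 2333 and 1546. Without 1 sham library these counts fell to 922 to 977 higher and 565 to 603 lower in DMSO against sham. Between A10i and DMSO, DESeq2 called 106 genes higher and 125 lower, the fit with no filter 18 and 25, the joint fit 2 and 9, and the threshold of 0.05 gave 3 and 9, against 0. No paired analysis was possible because the labels give no replicate numbers shared between groups. Wnt2, with 3 to 23 counts per library, and Wnt4 in sham, with 2 to 6, are limited by depth.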

Other observations

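Dkk2, a Dickkopf protein that binds the Lrp co-receptors, and its relative Dkk3 were called higher in A10i mice than in sham. Dkk1 and Dkk4 were not tested. Dkk1 had 0 counts in each sham library, 0, 0, 2 and 8 in DMSO A105, A127, A128 and A129, and 0 or 1 per A10i library. Dkk4 was at 0 in all libraries. Dkk3 was 7.67, 5.46 and 9.56 CPM in sham, 21.1, 13.7, 11.1 and 20.2 CPM in DMSO, and 31.6, 37.7, 20.3 and 27.1 CPM in A10i libraries. Its log2 fold change was 1.12 in DMSO (edgeR adjusted p = 0.0102, not past the threshold) and 1.96 in A10i mice (edgeR adjusted p = 0.000716), both against sham. Dkk2 had 1 to 3 counts in sham, 2 to 14 in DMSO and 12 to 48 in A10i libraries, and was called higher in A10i mice than in sham (edgeR adjusted p = 0.00284). Neither was called between A10i and DMSO (edgeR adjusted p = 0.18 for Dkk3 and 0.217 for Dkk2).

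Some Wnt genes stood lower in DMSO libraries than in both other groups, as Wnt5a did. Apcdd1, a membrane-bound Wnt inhibitor and target gene, was 5.33 to 6.9 CPM in sham, 3.59 to 4.48 CPM in DMSO and 5.34 to 8.19 CPM in A10i libraries (log2 fold change of A10i against DMSO 0.71, edgeR adjusted p = 0.105). Wnt10b, a ligand, was 0.39 to 0.561 CPM in sham, 0.0393 to 0.335 CPM in DMSO and 0.436 to 1.08 CPM in A10i libraries (edgeR adjusted p = 0.161), on 1 to 28 counts per library. In the pathway lists, Lrp6, Fzd7, Tnks2, Bambi, Prickle1 and Prickle2 also had every DMSO library below every sham and A10i library. The share of all genes with this order was not counted, so the order cannot be called particular to Wnt genes. All these genes were named after their values were seen, and none passed the edgeR threshold between A10i and DMSO.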
